A study of Mus musculus with 2 samples.

Results

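Mir335, Mir675, Mir483, Mir296 and Mir298 are microRNA genes of 4 imprinted loci outside the Dlk1-Dio3 region: Mest, H19, Igf2 and Gnas. They were chosen by name, as the rows of both deposited count tables whose gene identifiers map to these symbols in the GENCODE M21 annotation, and all 5 were found among the 2202 microRNA genes of the tables. Their levels were measured by small RNA sequencing of total RNA from gastrocnemius, a large calf muscle, of female B6CASTF1/J mice aged 25 days. This strain is the F1 generation of C57BL/6J crossed with CAST/EiJ, and the labels name no treatment and no second tissue. The 2 libraries were labelled as biological replicates of 1 group, so levels can be described and the libraries set against each other, but no condition can be compared. The source females carry separate numbers while the donor identifier of both libraries is the same, so the spread between them may be technical.

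Genomic imprinting silences a gene on the chromosome inherited from either the mother or the father, and many imprinted genes act on growth. Igf2, a growth factor read from the paternal chromosome, and H19, a non-coding RNA read from the maternal one, are neighbours under shared control, and both are known to be active in developing muscle. Mest and the Nespas transcript of the Gnas locus are read from the paternal chromosome. A microRNA is cut from a hairpin in a longer transcript, and bases 2 to 8 of the mature strand, the seed, lead its pairing with target messages. The counts belong to whole hairpins and were not split by parental chromosome or by arm, so they show neither which allele nor which strand was read.

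The hairpins are shown because the counts were assigned to them; the annotated mature arms are in capitals and the sequences are from RefSeq on build GRCm38.p6, the assembly also called mm10. Each is written 5′ to 3′ along its own strand. Differences between the CAST/EiJ chromosomes and this assembly were not examined, nor was their effect on alignment.
Mir335: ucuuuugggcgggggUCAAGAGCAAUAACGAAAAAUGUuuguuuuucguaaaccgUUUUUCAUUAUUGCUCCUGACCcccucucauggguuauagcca
Mir483: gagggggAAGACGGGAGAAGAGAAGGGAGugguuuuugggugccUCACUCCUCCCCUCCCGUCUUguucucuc
Mir675: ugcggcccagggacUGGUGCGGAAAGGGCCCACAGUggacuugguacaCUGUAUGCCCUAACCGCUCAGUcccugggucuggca
Mir298: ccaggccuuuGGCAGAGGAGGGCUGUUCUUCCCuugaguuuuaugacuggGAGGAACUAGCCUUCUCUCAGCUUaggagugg
Mir296: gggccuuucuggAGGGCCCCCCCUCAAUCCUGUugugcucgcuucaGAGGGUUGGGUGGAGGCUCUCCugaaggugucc

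The 10 mature arms are shown next because their seeds set which messages they can pair with; here the seed is in capitals.
miR-335-5p: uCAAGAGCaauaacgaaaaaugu
miR-335-3p: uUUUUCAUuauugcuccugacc
miR-483-5p: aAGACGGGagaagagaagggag
miR-483-3p: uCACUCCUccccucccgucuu
miR-675-5p: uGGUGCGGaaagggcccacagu
miR-675-3p: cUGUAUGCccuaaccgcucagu
miR-298-5p: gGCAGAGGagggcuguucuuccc
miR-298-3p: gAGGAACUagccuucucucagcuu
miR-296-5p: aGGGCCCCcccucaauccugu
miR-296-3p: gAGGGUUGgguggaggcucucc

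No seed of bases 2 to 8 was shared between these arms, and none recurred among the 1679 mature mouse microRNAs of the RefSeq table. The 5 genes are therefore grouped by genomic position here and not by a common seed. No stretch of 22 bases of these hairpins occurred in another microRNA gene of the tables, whereas 1081 of the 2202 genes (49.1%) shared such a stretch, 83 of them among the 324 detected genes. This bears on the counts because multiply aligned reads, 69.1% ± 0.794 of the total (SD, n = 2), were given to no gene. Stretches were sought on both strands, so genes that overlap each other, such as Mir30e and Mir30f, count as sharing. Sharing of that kind need not make a read align to several places. The mature arms also had no exact match in a transcript of another gene, apart from the arms of Mir675 in H19, its host. The whole genome was not searched.

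Mir335 lies at chr6:30741299-30741396 on the forward strand, in an intron of every one of the 7 annotated Mest transcripts, of 11, that span it. Mir483 lies at chr7:142654924-142654996 on the reverse strand, in an intron of all 7 Igf2 transcripts, of 9, that span it. It also lies in an intron of Gm49394, a protein-coding gene annotated over Igf2 on the same strand, and the counts do not tell these hosts apart. Mir335 and Mir483 are thus intronic, read in the direction of a protein-coding host. Mir675 lies at chr7:142577064-142577147, also on the reverse strand, inside an exon of 3 of the 4 spanning H19 transcripts and in an intron of the other. A distance of 77.8 kb separates the hairpins of Mir675 and Mir483, since H19 and Igf2 are neighbours. Mir298, at chr2:174267504-174267585, and Mir296, at chr2:174267047-174267125, are on the reverse strand with 378 bases between them. Neither lies inside an annotated gene of GENCODE M21 on the same strand. The 3′ end of Nespas is 13.7 kb before Mir298, and Gnas, on the opposite strand, starts 16.7 kb away. Other genes of the opposite strand were not examined. None of the 5 overlaps another microRNA gene.

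**Figure D1:**
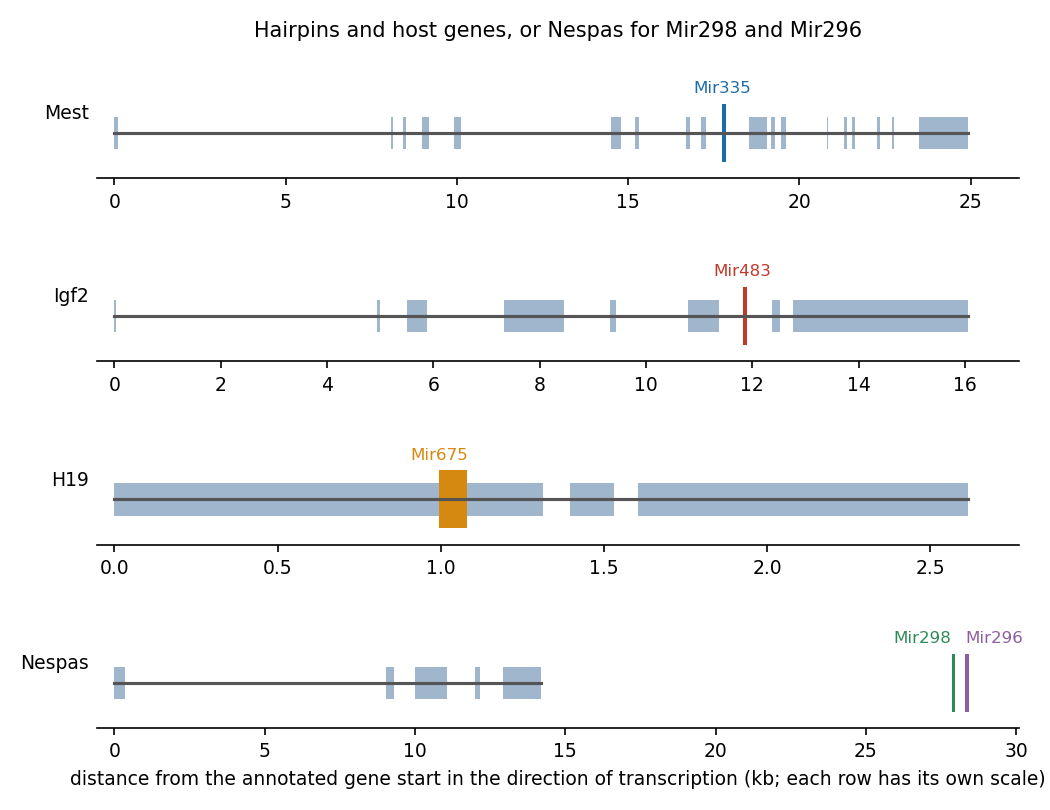
Map of each hairpin (coloured bars) on its host gene, or beside Nespas for Mir298 and Mir296, with annotated exons of all transcripts merged as boxes; the horizontal axis is the distance in kb from the annotated gene start in the direction of transcription. Mir335 and Mir483 fall between exons, Mir675 falls on an exon of H19, and Mir298 and Mir296 lie past the annotated end of Nespas.

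The hairpins differed in base composition. GC content was 42.9% in Mir335, 53.7% in Mir298, 58.9% in Mir483, 63.1% in Mir675 and 63.3% in Mir296, beside a median of 50.0% over the 324 detected hairpins. Mir675 and Mir296 had more GC than 90.4% and 91.4% of the detected hairpins, and Mir335 more than 22.8%. The most abundant gene of the 5 was thus the one with the least GC. The predicted folding energy (RNAfold) per 100 bases ranged over the 5 hairpins from -66.7 kcal/mol in Mir675 to -45.2 in Mir335, beside a median of -43.3 for detected hairpins.

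On the strand of microRNA genes, 1573213 counts were assigned in replicate 1 and 5429127 in replicate 2, which was 3.45 times as deep, so intervals are narrower in replicate 2. Levels are given as CPM, gene-strand counts scaled to a library total of 1000000 over all microRNA genes, with exact (Clopper-Pearson) 95% intervals that cover counting error only. Whether different sequences entered the libraries equally well was not tested, so a count ratio between genes need not be a ratio of molecules. A read of this library type covers most of a mature microRNA, so CPM were not divided by hairpin length; levels per hairpin base, with means of 124 CPM per base for Mir335 and 0.413 for Mir675, gave the same order of the 5 genes. A count of 0 allowed up to 1.91 CPM in replicate 1 and 0.553 CPM in replicate 2. A gene was called detected at 2 CPM or more in both libraries. The tissue label was checked on Mir206, a microRNA specific to skeletal muscle, which stood at 34864 CPM in replicate 1 and at 72482 CPM in replicate 2.

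All 5 genes were detected, against 14.7% of all microRNA genes of the tables, and their levels spread over a 351-fold range. That background includes the 1081 genes that share a stretch with another, of which 83 were detected, while the 5 share none. Mir335 held 91.8% of their summed counts in replicate 1 and 90.0% in replicate 2. Together they held 1.26% of the microRNA counts of replicate 1 (1.25 to 1.28) and 1.41% of those of replicate 2 (1.41 to 1.42), and without Mir335 the share was 0.104% in replicate 1 and 0.142% in replicate 2.

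Mir335, named in human breast cancer cells as a suppressor of metastasis, was the most abundant of the 5. Replicate 1 had 18271 counts, or 11614 CPM (11447 to 11782), and replicate 2 had 69117 counts, or 12731 CPM (12637 to 12825), a mean of 12172 ± 790 CPM (SD, n = 2). It ranked 19th of 2202 genes in each library, and 6th by mean CPM among the 724 microRNA genes in sense introns of protein-coding genes. The first of those 724, and of all genes, was Mir378a in Ppargc1b, which overlaps the microRNA gene Gm25301, at 98707 ± 6479 CPM. By reads given to a single gene, Mir335 was thus a high-level intronic microRNA of these libraries. By the same reads it was the highest of the imprinted loci outside Dlk1-Dio3 that were examined. Genes that share a stretch with another can lose multiply aligned reads, so the ranks of the 5 genes may be too high.

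Mir483, which lies in introns of Igf2 and Gm49394 and is known in fat tissue of rats and people to repress the growth factor GDF3, came next. It had 1312 counts, or 834 CPM (789 to 880), in replicate 1 and 6559 counts, or 1208 CPM (1179 to 1238), in replicate 2, a mean of 1021 ± 265 CPM. The intervals of the libraries did not overlap. It ranked 75th in replicate 1 and 66th in replicate 2, and 25th by mean CPM among sense-intronic microRNA genes. The mean of Mir335 was 11.9 times that of Mir483.

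Mir675 comes from H19; in mouse it is known to limit placental growth through Igf1r and to promote differentiation of muscle cells. It was the least abundant of the 5, with 57 counts, or 36.2 CPM (27.4 to 46.9), in replicate 1 and 180 counts, or 33.2 CPM (28.5 to 38.4), in replicate 2. Its mean was 34.7 ± 2.18 CPM, and the intervals of the libraries overlapped. Although H19 and Igf2 are neighbours, Mir483 had 23.0 counts per count of Mir675 in replicate 1 and 36.4 in replicate 2.

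The pair at the Gnas locus stood at unequal levels. Mir298, known in mouse cells to repress Bace1, the beta-secretase, had 186 counts, or 118 CPM (102 to 136), in replicate 1 and 745 counts, or 137 CPM (128 to 147), in replicate 2. Mir296, studied in human endothelial cells as a microRNA of vessel growth, had 74 counts, or 47.0 CPM (36.9 to 59.1), in replicate 1 and 219 counts, or 40.3 CPM (35.2 to 46.0), in replicate 2. Their means were 128 ± 13.4 CPM and 43.7 ± 4.74 CPM. Mir298 made up 71.5% of the counts of both genes in replicate 1 (65.6 to 76.9) and 77.3% in replicate 2 (74.5 to 79.9). Mir298 thus had more counts than Mir296 in both libraries, beyond counting error.

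By mean CPM the order was Mir335, Mir483, Mir298, Mir296 and Mir675 in each library. The first 4 were separated from one another in both libraries, with intervals that did not overlap. Within either library alone, Mir296 and Mir675 were not separated beyond counting error, and their intervals overlapped. Mir296 made up 56.5% of the counts of the pair in replicate 1 (47.6 to 65.1) and 54.9% in replicate 2 (49.9 to 59.8). Both libraries together were not tested. The 2 values of Mir296 nevertheless lay above the 2 values of Mir675.

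**Figure D2:**
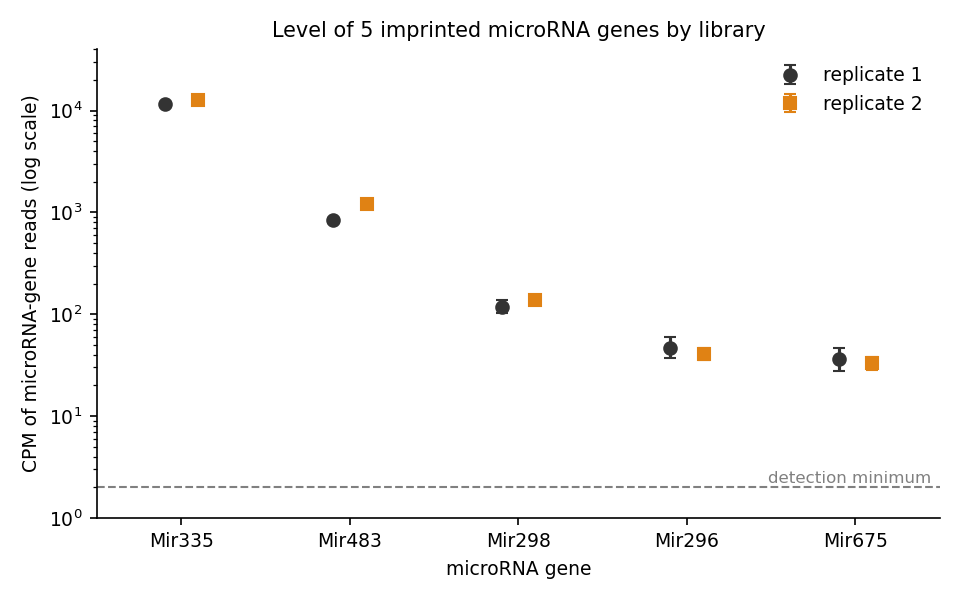
Level of each gene in CPM (vertical log axis) in replicate 1 (circles) and replicate 2 (squares), with exact 95% intervals of counting error; the dashed line is the detection minimum of 2 CPM. The 5 genes fall in steps from 12172 CPM for Mir335 to 34.7 CPM for Mir675, and Mir296 and Mir675 have overlapping intervals.

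The libraries differed for Mir335 and Mir483, both lower in replicate 1 than in replicate 2. A two-sided exact binomial test, in which the library totals set the odds, was run on the 364 genes whose counts summed to 10 or more, with Benjamini-Hochberg adjustment over them. It called 45.3% of these genes: 30.2% were higher in replicate 1 (110 genes) and 15.1% higher in replicate 2 (55 genes). Of the 5 genes, 2 were called higher in replicate 2, 0 higher in replicate 1, and 3 were not called. Such a test compares these libraries and not conditions. It holds counting as the only error, so the edgeR common biological coefficient of variation of 24.6%, from 1 residual degree of freedom, was set beside it. On the scale of 1 gene's log2 ratio this amounts to an SD of 0.50.

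For Mir483 the log2 ratio of replicate 1 over replicate 2 was -0.53 (exact 95% interval -0.62 to -0.45; exact binomial test, adjusted p = 3.07e-36), a level in replicate 2 that was 1.45 times that in replicate 1. This was just beyond the SD of 0.50. Called genes higher in replicate 2 and beyond that SD made up 3.57% of the genes tested. That share covers 1 direction only. Called genes beyond the SD toward replicate 1, such as Mir143 at a log2 ratio of 1.11, are not in it. For Mir335 the log2 ratio was -0.13 (-0.16 to -0.11; exact binomial test, adjusted p = 7.26e-28), well within the SD.

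Mir298 had a log2 ratio of -0.21 (-0.45 to 0.02; exact binomial test, adjusted p = 0.134). Mir296 had a ratio of 0.23 (-0.18 to 0.61; exact binomial test, adjusted p = 0.407) and Mir675 of 0.14 (-0.33 to 0.57; exact binomial test, adjusted p = 0.753). These 3 were not called, and the intervals allow differences in either direction. The median log2 ratio over the 324 detected genes was 0.15, and TMM scaling moved all ratios by -0.08 and DESeq2 size factors by -0.13. Relative to that median, Mir483 stood at -0.69, Mir298 at -0.36, Mir335 at -0.28, Mir675 at -0.01 and Mir296 at 0.08. With DESeq2 size factors Mir298 was also called higher in replicate 2 (log2 ratio -0.34; exact binomial test, adjusted p = 0.00842). The split over all genes moved as well: with these factors 80 were higher in replicate 1 and 95 in replicate 2.

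**Figure D3:**
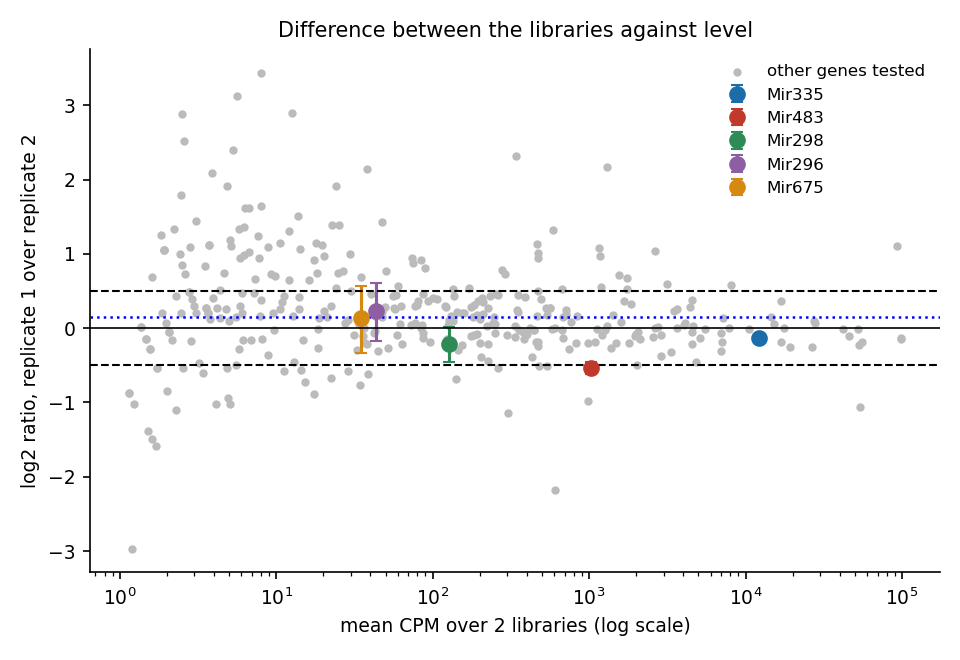
Log2 ratio of replicate 1 over replicate 2 against mean CPM (horizontal log axis) for the 364 genes tested, in grey, and for the 5 imprinted genes, in colour with exact 95% intervals; dashed lines mark an SD of 0.50 on either side of 0 and the dotted line the median of detected genes, 0.15. Mir483 lies just past the lower dashed line and the other 4 lie within.

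Ratios within a library need no scaling, and they set Mir483 apart from most of the others. Of the 10 pairs among the 5 genes, 3 had shares whose exact intervals did not overlap between the libraries, and all 3 include Mir483. Mir335 made up 93.3% of the counts of Mir335 and Mir483 in replicate 1 (92.9 to 93.6) and 91.3% in replicate 2 (91.1 to 91.5). Mir483 made up 95.8% of its pair with Mir675 in replicate 1 (94.6 to 96.8) and 97.3% in replicate 2 (96.9 to 97.7). With Mir296 its share was 94.7% in replicate 1 (93.3 to 95.8) and 96.8% in replicate 2 (96.3 to 97.2). In the remaining pair with Mir483, that with Mir298, and in all pairs without it, the intervals overlapped. Overlap does not show that a ratio was equal in the libraries. Mir483 had 7.05 counts per count of Mir298 in replicate 1 and 8.80 in replicate 2. Every pair without Mir483 includes Mir298, Mir296 or Mir675, which had 57 to 186 counts in replicate 1, so those intervals are wide.

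Cell type markers also differed between the libraries, but the genes of a list did not always move together. The 10 striated muscle genes, all with counts, summed to 36393 CPM in replicate 1 and 75014 in replicate 2; without Mir206 they summed to 1529 CPM in replicate 1 and 2532 CPM in replicate 2. The exact binomial test called 3 of them higher in replicate 1, 5 higher in replicate 2 and 2 in neither direction, with a median log2 ratio of -0.15. Mir1a-2 and Mir208a were among those higher in replicate 1, at log2 ratios of 0.25 and 0.74, so the larger sum in replicate 2 is not shared by the whole list. Multiply aligned reads were given to no gene, so a marker gene that shares a stretch with another can lose reads. Shared stretches were not counted for these lists, so a low value here need not mean a low level of the mature microRNA. Of the 6 smooth muscle and fibroblast genes, whose sum was 132934 CPM in replicate 1 and 63422 CPM in replicate 2, Mir143 carried most. Here 3 genes were called higher in replicate 1, and Mir214 was called higher in replicate 2, at 1674 CPM in replicate 1 and 2355 CPM in replicate 2. The 6 immune genes were mixed: 3 were called higher in replicate 1 and 2 higher in replicate 2. Their sum was 3525 CPM in replicate 1 and 3074 CPM in replicate 2, led by Mir155, and without Mir142 it was 2686 CPM in replicate 1 and 2739 CPM in replicate 2.

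In the remaining lists no gene was called against the direction of the sum. The endothelial sum, nearly all Mir126a, was 93329 CPM in replicate 1 and 103367 CPM in replicate 2. For the erythroid genes Mir451a and Mir144 the sum was 2703 CPM in replicate 1 and 587 in replicate 2, and both were called. The 10 epithelial genes, led by Mir203, summed to 518 CPM in replicate 1 and 255 in replicate 2, and 7 were called. The 11 neural genes, led by Mir338, summed to 1663 CPM in replicate 1 and 786 CPM in replicate 2; 2 were called, and Mir124a-1, Mir124a-2, Mir124a-3 and Mir9-2 had no counts. The part of cell composition in the levels of Mir335 and Mir483 was not tested, and in bulk tissue fewer cells of a type and less RNA per cell cannot be told apart.

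Other imprinted microRNA genes gave a scale for these levels. The Meg3-proximal and Rtl1-antisense genes of the Dlk1-Dio3 region held 3.85% ± 0.358 of the counts (SD, n = 2) and its distal array 4.98% ± 0.594. The genes at Mest, H19, Igf2 and Gnas held 1.34% ± 0.106, and the microRNA genes inside Sfmbt2 0.0623% ± 0.0149. By reads given to a single gene, Mir335 alone thus exceeded the sum of the Sfmbt2 genes. That sum was 728 CPM in replicate 1 and 517 in replicate 2, with no counts for 109 of the 119 genes. Because multiply aligned reads were given to no gene, sums and shares may be too low where genes share a stretch with another. The order of these groups by share therefore need not be their order by mature microRNA. Mir335 stood below the leading Dlk1-Dio3 genes Mir127, at 26718 ± 3234 CPM, and Mir411, at 19135 ± 2361 CPM, and above their runners-up, Mir434 at 4088 ± 135 CPM and Mir379 at 5082 ± 345 CPM.

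Over every gene in the tables, median mean CPM was 128 for the 5 genes, 197 for the 18 proximal and 193 for the 39 distal Dlk1-Dio3 genes, and 0 for the 119 Sfmbt2 genes, for the 724 sense-intronic genes and for all 2202. Detected were 14 proximal genes (77.8%), 33 distal genes (84.6%), 7 Sfmbt2 genes (5.88%) and 110 sense-intronic genes (15.2%). The same limit on multiply aligned reads holds for these medians and counts of detected genes. Of the Sfmbt2 genes Mir467d, at 262 ± 56.9 CPM, and Mir467e, at 233 ± 49.3 CPM, were highest. Between the libraries, the exact binomial test called 1 of 16 proximal genes higher in replicate 1 and 5 higher in replicate 2, and 1 of 33 distal genes higher in replicate 1 and 15 higher in replicate 2. Of 8 tested Sfmbt2 genes it called 5 higher in replicate 1 and 0 higher in replicate 2. Median log2 ratios were -0.13 for the 5 genes, -0.10 for the proximal genes, -0.19 for the distal genes, 0.57 for the Sfmbt2 genes and 0.15 for all 364 genes tested.

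**Figure D4:**
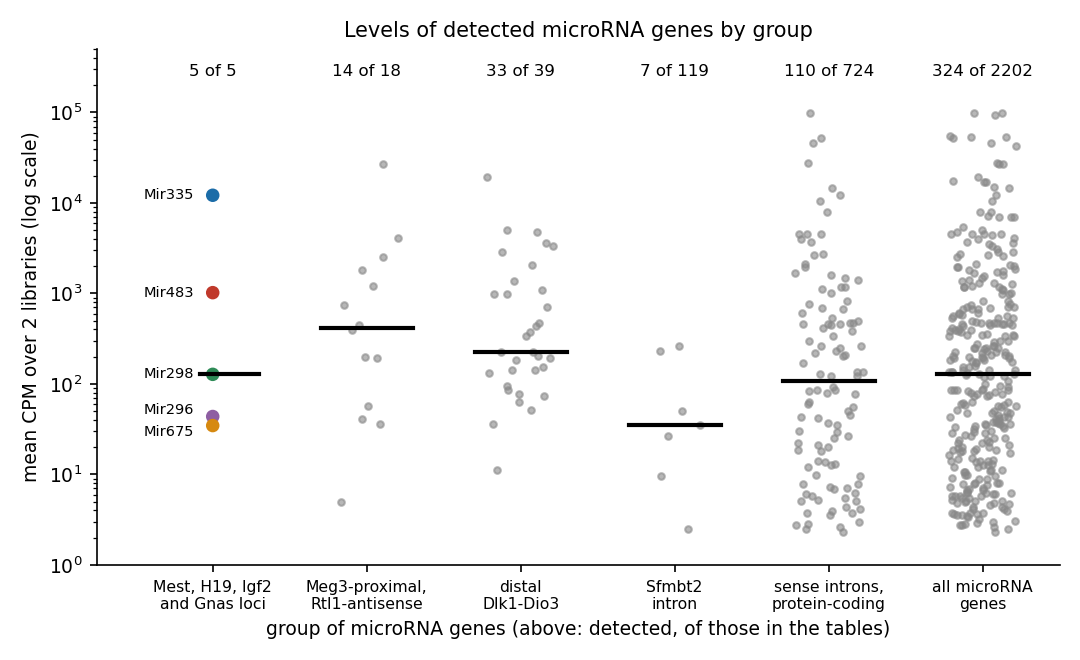
Mean CPM over both libraries (vertical log axis) of the detected microRNA genes of each group, with the number detected of those in the tables above and the median of the detected genes as a bar. The 5 named genes span the range from 34.7 to 12172 CPM, and 7 of 119 Sfmbt2 genes are detected. Multiply aligned reads are in the count of no gene.

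Within 1 Mb of these loci lay 11 other microRNA genes. Of these, 4 were detected (36.4%, against 14.7% of all 2202 genes), all of them around Mest, and 4 had no counts in either library, against 1538 of all 2202. Mir29a, 321 kb from Mir335, stood at 1920 CPM in replicate 1 and 1169 CPM in replicate 2 (log2 ratio 0.72; exact binomial test, adjusted p = 1.33e-103), opposite in direction to Mir335. The values of Mir29b-1 were 11.4 CPM in replicate 1 and 19.3 CPM in replicate 2; it was not called (exact binomial test, adjusted p = 0.0823). Mir182, Mir183 and Mir96, a cluster typical of epithelium and sensory organs, lay 572 to 575 kb away; Mir182 stood at 61.7 CPM in replicate 1 and 14.0 CPM in replicate 2. All 3 were called higher in replicate 1, although Mir96 rested on 7 and 3 counts. Around H19 and Igf2, Mir7063, Mir7064 and Mir3104 had at most 4 counts in a library, while Mir6340 and Gm27591, around Gnas, and Gm23049, around Mest, had 0.

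The genes nearest in level over both libraries, by distance on log2(CPM + 1), were all on other chromosomes than the gene itself. For Mir335 they were Mir10b (distance 0.31), Mir30e (0.42) and Mir30a (0.46). For Mir483 they were Mir409 (0.24), Mir154 (0.29) and Mir381 (0.34), all of the distal Dlk1-Dio3 array. Mir298 stood nearest to Mir301 (0.09), Mir1843a (0.18) and Mir339 (0.23). Mir296 stood nearest to Snord43 (0.06), which the annotation lists as a microRNA gene, Mir7689 (0.16) and Mir378c (0.17). Mir675 stood nearest to Mir194-2 (0.08), Mir667 (0.11) and Mir345 (0.13). Likeness over 2 libraries of 1 tissue rests mainly on level, and Mir194-2, Mir1843a, Mir30e and Mir409 share a stretch of 22 bases with another microRNA gene. For Mir30e and Mir409 that gene overlaps them.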

How the data were processed

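Raw read counts per microRNA gene were deposited by the authors as 1 table per library, without a header. From the values, the first of 3 columns ignores strand, the next holds gene-strand reads, which give all levels here, and the last holds opposite-strand reads. Counts of a hairpin do not tell its arms apart. The assembly was mm10 per the labels and the annotation GENCODE M21 per the deposited readme files. The aligner, counter and filters used remain not given in the sources used here. Tally rows stayed out of totals and tests: multiply aligned reads were 68.6% of replicate 1 and 69.7% of replicate 2, unaligned reads 7.95% and 6.08%, and reads outside microRNA genes 2.14% and 1.71%.

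CPM, exact intervals and exact binomial tests (adjusted p under 0.05) were computed in Python 3.11.15 with scipy 1.17.1, pandas 2.3.3, numpy 2.4.6 and matplotlib 3.10.9. Log2 ratios used an offset of 0.5 counts. The common dispersion came from edgeR 4.0.16 (TMM scaling) and size factors from DESeq2 1.42.0, in R 4.3.3, and folding energies from RNAfold 2.7.2. The binomial test was tried on simulated counts with counting error only, so its behaviour under the spread between these libraries was not checked. The dispersion estimate was tried on simulated counts of known spread. Alternatives were the column that ignores strand, a denominator of all aligned reads, other CPM minimums (1 and 5), TMM and DESeq2 scaling, no filter on low counts, an offset of 5 and each replicate left out.

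The 5 genes and all lists were chosen with earlier results of these data known. Genes named besides the 5 were the 3 nearest in level to each, those within 1 Mb, the 2 most abundant of each other imprinted list, and the most abundant gene overall and of each marker list. Genes listed with no counts were named to complete their lists, and Mir1a-2, Mir208a, Mir214 and Mir142 were named after their values were seen.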

Additional observations from a re-analysis of the deposited data

Results flagged for a closer look

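Reads opposite to Mir675 were seen in the opposite-strand counts, which no level uses, above the 3 counts that a count of 0 allows. Replicate 1 had 1 such read of 58 on both strands (1.72%, exact 95% interval 0.0436 to 9.24), and replicate 2 had 5 of 185 (2.70%, 0.883 to 6.19). Mir483, Mir296 and Mir298 had 0 in both libraries, and Mir335 had 0 in replicate 1 and 1 of 69118 in replicate 2. Over the 2135 microRNA genes that overlap no other, opposite-strand reads were 0.00477% of replicate 1 and 0.00192% of replicate 2, and 1 gene in replicate 1 and 6 in replicate 2 had more than 3. The cause was not tested.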

How the results depend on the processing

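All 5 genes were detected and kept their places in the order by level under every alternative run; a scaling factor cannot change the order within a library. With 2 libraries, leaving 1 out gives the level in the other, and the exact binomial test could not then be computed. With the either-strand column, whose microRNA total is smaller, mean levels were 15916 CPM for Mir335, 1337 for Mir483, 167 for Mir298, 57.05 for Mir296 and 46.3 for Mir675. As a share of all aligned reads they were 2874 for Mir335, 242 for Mir483, 30.2 for Mir298, 10.3 for Mir296 and 8.18 for Mir675, per 1000000 reads, because multiply aligned reads enter that denominator. TMM and DESeq2 scaling moved no level by more than its SD. Both sets of factors were centred on the library totals, so a mean over 2 libraries could hardly move.

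Mir335 and Mir483 were called higher in replicate 2 with TMM and DESeq2 scaling, without the filter on low counts and with the either-strand column. The offset of 5 counts enters only the log2 ratio and not the test, and it turned no direction. Mir298 was also called with TMM scaling (log2 ratio -0.29, exact binomial test, adjusted p = 0.0280) and with DESeq2 size factors (-0.34), and not without the filter or with the either-strand column. Mir296 and Mir675 were called under none of these. Genes called higher in replicate 2 numbered 95 with DESeq2 size factors and 55 with library totals. No paired analysis was possible because the libraries form 1 group. Depth limits Mir675 and Mir296 most, at 57 and 74 counts in replicate 1.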
